A study of Bos taurus with 30 samples.

Results

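GUCY1B1 encodes the beta subunit of soluble guanylate cyclase, the intracellular receptor for nitric oxide. It was measured by 1 probe, which was 1 of 13824 probes on the array and 1 of 13818 that were tested. The probes with 1 symbol named 8073 genes. The probe was found by its gene symbol in the platform annotation, where it carries gene ID 282433 and no second probe bears that symbol or the older name GUCY1B3. The gene was selected on its values in SCNT animals, where it stood among the probes with the highest ratios. Its SCNT values, and its differences from SCNT to the other groups, are therefore given as a description without a test.

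The study set the caruncle of the bovine uterine lining against the intercaruncle in pregnant cows. The caruncles are the raised patches to which the placenta fixes itself, and the intercaruncle is the gland-bearing lining around them. Of 15 animals, 5 carried a conceptus from somatic cell nuclear transfer (SCNT, the cloning method), 5 carried an embryo fertilised in vitro and then transferred (IVF-ET), and 5 were pregnant by artificial insemination (AI). Both tissues of an animal were hybridised together on each of 2 arrays, 1 tissue in Cy3 (channel 1) and the other in Cy5 (channel 2), which makes 30 arrays. In 14 animals the tissues changed dyes between the 2 arrays. Both arrays of IVF-ET replicate 3 carried the same dye labels, so that animal was left out of the group values, which leaves 4 IVF-ET animals. Breed, age and day of pregnancy were not given in the sources used here, and no animals without a pregnancy were among the samples.

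Every value below is a deposited log ratio of the 2 tissues of 1 animal, centred on the median of its array and taken as log2. Neither the base of the logarithm nor the tissue on top of the ratio is stated, so results are given as positive or negative in the sign of the deposited value, without naming the tissue. The values were read as ratios already turned to the tissues, so that the mean of both arrays is the value of an animal. A ratio of 2 tissues gives no level in either of them. In such bulk tissue RNA, fewer cells of a type and less RNA per cell cannot be told apart.

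Nitric oxide, made from arginine by the nitric oxide synthases, diffuses into neighbouring cells and binds a haem group carried by the beta subunit. The enzyme is a heterodimer of an alpha and a beta subunit, and binding of the gas raises its output of cyclic GMP. Cyclic GMP activates protein kinase G, relaxes smooth muscle and widens vessels, and is broken down by phosphodiesterases. In the uterus this pathway is known for its part in the quiescence of the muscle wall and in blood flow to the endometrium.

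In SCNT animals GUCY1B1 lay on the positive side on 10 of 10 arrays. The 2 arrays gave 1.19 and 1.67 in replicate 1, 1.94 and 2.23 in replicate 2, and 1.00 and 1.07 in replicate 3. They gave 1.11 and 1.18 in replicate 4, and 1.56 and 1.21 in replicate 5. Replicate 2 was the highest animal and replicate 3 the lowest, and within each animal both arrays lay close together relative to the distance from 0. The animal values were 1.43, 2.08, 1.04, 1.14 and 1.38, with a mean of 1.41 ± 0.41 (SD, n = 5), a 2.66-fold ratio between the tissues. Ranked among the probes of its own animal, the gene was 7th, 1st, 57th, 12th and 31st from the top, and its group mean was 5th. These ranks restate the choice of the gene.

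**Figure D1:**
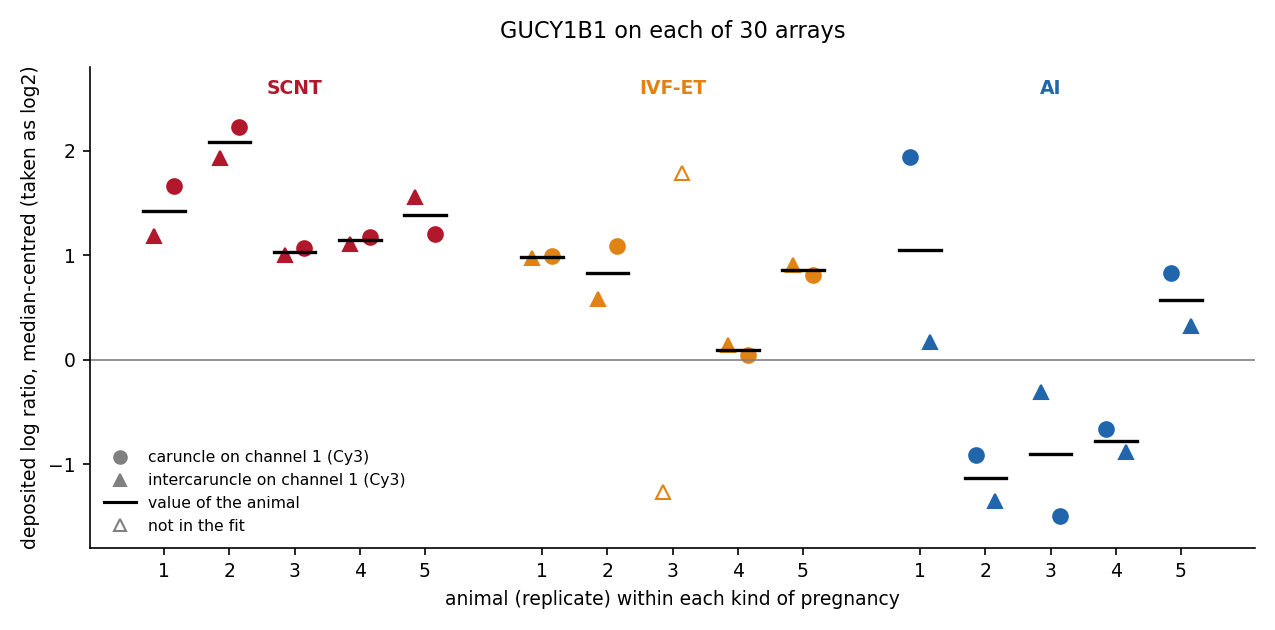
The median-centred log ratio of GUCY1B1 (y axis, log2) on each of 30 arrays, by animal (x axis) in SCNT, IVF-ET and AI; circles mark arrays with caruncle on channel 1, triangles those with intercaruncle on channel 1, bars the value of the animal, and open symbols the animal left out. All 10 SCNT arrays lie above 0, both arrays of every animal in the fit lie on the same side, and the AI animals divide into 2 above 0 and 3 below it.

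IVF-ET animals lay on the same side, with smaller values and 1 animal near 0. The 2 arrays gave 0.97 and 0.99 in replicate 1, 0.58 and 1.09 in replicate 2, 0.14 and 0.04 in replicate 4, and 0.90 and 0.81 in replicate 5. Replicate 4 stood apart from the other 3, which lay between 0.83 and 0.98 as animal means. The group mean was 0.69 ± 0.40 (SD, n = 4), a 1.61-fold ratio, positive in 4 of 4 animals, with an unadjusted p of 0.0293 and an adjusted p of 0.566 over all probes, both from limma. By an exact sign-flip permutation test over the 4 animals, two-sided, p was 0.125, the smallest that 16 sign patterns can give. The mean therefore did not pass the threshold after adjustment, although it ranked 50th from the top among all probes. Of 13818 probes, 0% passed in IVF-ET, so no gene did, and 1099 probes had an unadjusted p under 0.05.

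IVF-ET replicate 3 gave -1.26 on its first array and 1.79 on its second. Its arrays thus lay on opposite sides. The probe ranked 13714th of 13799 from the top on the first of these arrays and 52nd of 13807 on the second. Kept with its first array turned, the animal moves the IVF-ET mean to 0.86 (adjusted p = 0.164 from limma). Kept with its second array turned, it moves the mean to 0.25 (adjusted p = 0.999 from limma) and IVF-ET minus AI to 0.48, and kept as deposited, it moves the mean to 0.62.

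AI animals divided between the sides. GUCY1B1 gave 1.94 and 0.17 on the 2 arrays of replicate 1, and 0.83 and 0.32 on those of replicate 5. It gave -0.91 and -1.35 in replicate 2, -0.31 and -1.49 in replicate 3, and -0.66 and -0.89 in replicate 4. Replicates 1 and 5 were therefore positive and replicates 2, 3 and 4 negative on both arrays, with animal means of 1.05, -1.13, -0.90, -0.77 and 0.58 in the order of the replicates. The gene lay far out in each direction: it ranked 31st from the top in replicate 1 and 13th, 58th and 121st from the bottom in replicates 2, 3 and 4. The group mean was -0.24 ± 0.98 (SD, n = 5), with an adjusted p of 1.00 from limma, and it was -0.56 without replicate 1 and -0.01 without replicate 2. The SD of GUCY1B1 exceeded that of 84.4% of probes over the SCNT animals and that of 99.8% of probes over the AI animals. In AI animals 0% of probes passed the threshold, with 604 at an unadjusted p under 0.05.

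The order of the group means was SCNT, IVF-ET and AI. Among the animals in the fit, the lowest SCNT animal, at 1.04, stood just above the highest IVF-ET animal, at 0.98. These groups thus did not overlap, as was true of 2.25% of probes, but the gene was chosen on its SCNT values. IVF-ET replicate 3, left out here, gave -1.26 and 1.79 on its arrays, so its place in this order is not known. The difference SCNT minus IVF-ET was 0.72 ± 0.39 (SE from limma), given without a test. Between SCNT and AI the difference was 1.65 ± 0.36, also without a test, and the groups overlapped through AI replicate 1. IVF-ET minus AI, which the choice of the gene did not use, was 0.93 ± 0.39 (unadjusted p = 0.0294 and adjusted p = 0.518, both from limma). The exact permutation test over these 9 animals, two-sided, gave p = 0.127 (126 regroupings, smallest possible 0.00794). The difference did not pass after adjustment over all probes or by the permutation test, and the groups overlapped, with IVF-ET replicate 4 below AI replicates 1 and 5. In that comparison 0.0579% of probes passed. These p-values measure the spread between the animals sampled here. Arrays were numbered group after group, so a drift along that order and a difference between groups cannot be told apart.

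Whether the AI ratios were deposited in the same direction as the others is not known. AI arrays correlated with the mean SCNT profile at r between -0.56 and 0.47 over all other probes. IVF-ET arrays, replicate 3 included, ran between -0.31 and 0.47. Such ranges show that arrays within a group differ, and they do not settle the sign of a group. With the sign of all AI arrays turned, the AI mean of GUCY1B1 was 0.24, the difference SCNT minus AI was 1.18 and IVF-ET minus AI was 0.46 (adjusted p = 0.999 from limma). Turning the sign exchanges the animals that stand apart: replicates 2, 3 and 4 then lie on the side of the SCNT and IVF-ET animals, and replicates 1 and 5 lie opposite to it.

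Because the dyes were exchanged between the arrays of an animal, a probe that follows the dyes and not the tissues would change sign between them under the reading used here. Under the other reading, of dye ratios not turned, a kept side is what a probe that follows the dyes would show. GUCY1B1 kept its side on both arrays in 14 of 14 animals with both orientations. In the 9 IVF-ET and AI animals, which did not enter its choice, it did so in 9, as did 0.237% of probes. Over those 9 animals the values of both arrays correlated at r = 0.72, against a median of 0.01 over probes. Within animals, the correlation between both arrays over all probes, corrected for the dye effect, had a median of 0.13 and ran from -0.05 to 0.79. The probes that kept their side in all 14 animals numbered 7. They were GUCY1B1, C1S (a complement protease), DKK1 (a secreted WNT inhibitor), DLX5 (a homeobox factor), KIF1A (a kinesin motor), LOC513055 and a probe without a name.

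The mean effect of the dye orientation on GUCY1B1 was small beside its ratio. Taken as the difference of the 2 arrays divided by the 2 arrays per animal, caruncle on channel 1 minus intercaruncle on channel 1, it averaged 0.09, at the 52.2 percentile of probes by size. The largest such value was 0.89, in AI replicate 1, followed by -0.59 in AI replicate 3. Read as dye ratios, so that this difference becomes the tissue ratio, GUCY1B1 was at 0.06 in SCNT, 0.04 in IVF-ET and 0.18 in AI (adjusted p = 0.923 in IVF-ET and 0.475 in AI from limma). Duplicate spots of the probe differed by at most 0.53 on an array, with a median of 0.09, against 0.14 over all probes.

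On most single arrays of IVF-ET and AI animals, GUCY1B1 lay on the side of the whole profile. The mean SCNT profile was taken over all other probes, without the animal itself where that was an SCNT animal. Over the 20 IVF-ET and AI arrays, the gene lay on the side given by the sign of the array's correlation with that profile on 8 of 10 IVF-ET and 9 of 10 AI arrays. The 3 exceptions all had a correlation of at most 0.07 in size. IVF-ET replicate 3 shows both cases, with r = -0.31 where the gene was at -1.26 and r = 0.44 where it was at 1.79. The arrays of AI replicate 1, the second of them an exception, had r = 0.47 with the gene at 1.94 and r = -0.07 with the gene at 0.17. GUCY1B1 was chosen for its high SCNT values, so its side is not independent of the SCNT profile. The share of other probes that follow the profile in this way was not computed, and arrays of the same animal are not separate cases.

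GUCY1A1, the alpha subunit that pairs with GUCY1B1 in the main form of the receptor, passed in no group. Its 1 probe (gene ID 281216) gave animal values of 0.39, 0.25, -0.13, 0.35 and 0.15 in SCNT, with a mean of 0.20 ± 0.21 (SD, n = 5, adjusted p = 0.351 from limma). In IVF-ET the values were 0.33, -0.19, 0.45 and 0.30 in replicates 1, 2, 4 and 5, with a mean of 0.22 ± 0.28 (SD, n = 4, adjusted p = 0.646 from limma). In AI they were 0.01, 0.12, 0.18, -0.10 and -0.12, with a mean of 0.02 ± 0.13 (SD, n = 5, adjusted p = 1.00 from limma). All 3 groups overlapped, and the animals ran from -0.19 to 0.45. IVF-ET minus AI was 0.21 ± 0.15 (SE, adjusted p = 0.772 from limma).

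**Figure D2:**
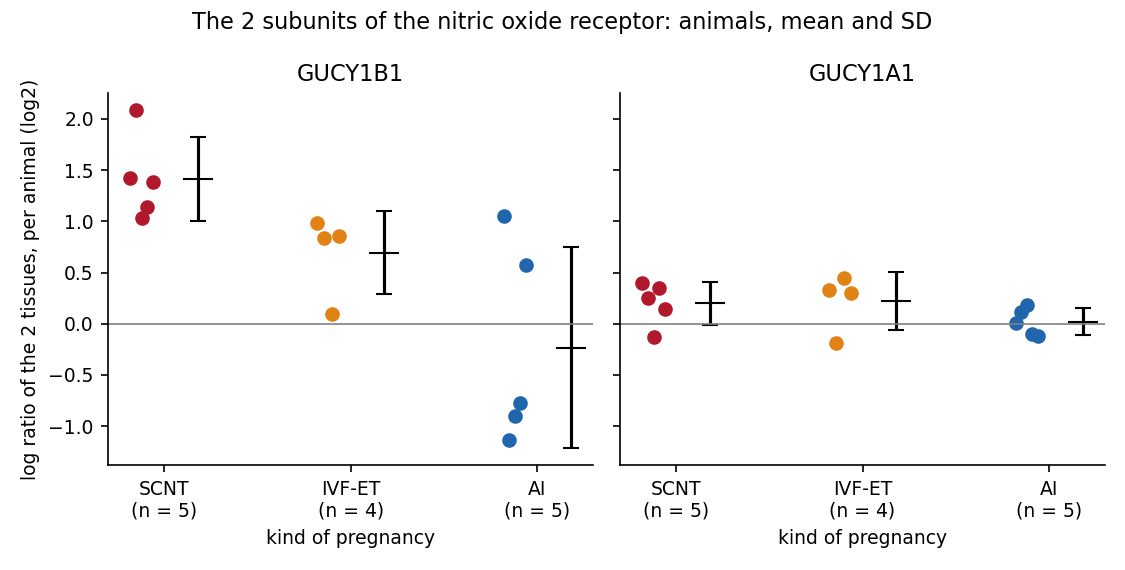
Log ratio of the tissues per animal (y axis, log2) for GUCY1B1 and GUCY1A1 in SCNT, IVF-ET and AI; points are animals, and the cross with whiskers is the mean with its SD. GUCY1B1 spans -1.13 to 2.08, while GUCY1A1 stays between -0.19 and 0.45.

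The alpha subunit had less agreement between arrays. Both arrays lay on the same side in 7 of 14 animals for GUCY1A1, which is the median over probes, and they correlated at r = -0.40 over the animals. Replicate 2 of IVF-ET shows this, at 0.50 and -0.88 on its 2 arrays, and SCNT replicate 2 as well, at -0.20 and 0.71. Across the 14 animals GUCY1A1 correlated with GUCY1B1 at r = 0.19, and over the 9 SCNT and IVF-ET animals at r = -0.06. Read as dye ratios, GUCY1A1 was at -0.06 in SCNT and -0.25 in IVF-ET. The other subunit genes, GUCY1A2 and GUCY1B2, had no probe under those symbols.

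In the bovine annotation ARS-UCD2.0, GUCY1A1 is the protein-coding gene next to GUCY1B1. Of the 5 protein-coding genes on each side of GUCY1B1, 3 were on the array. Besides GUCY1A1 these were GLRB, a glycine receptor subunit, at 0.17 in SCNT, 0.17 in IVF-ET and -0.15 in AI, and the growth factor PDGFC at 0.10, -0.07 and 0.06 in the same groups. None passed the threshold in SCNT animals, where 1.82% of probes did. Among the 10 probes printed nearest to GUCY1B1, 5 on each side, SCNT means ran between -0.10 and 0.65, and 1 probe without a name passed, at 0.65.

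GUCY1B1 did not pass the threshold in IVF-ET, AI or IVF-ET minus AI, and was not tested in SCNT. The tested genes of the nitric oxide and cyclic GMP pathway besides it did not pass either. Of 96 listed genes besides GUCY1B1, 60 were tested, and none passed in SCNT, IVF-ET, AI or IVF-ET minus AI by limma. Of all probes, 1.82% passed in SCNT, 0% in IVF-ET, 0% in AI and 0.0579% in IVF-ET minus AI. At these shares few or none of 60 genes, or of the shorter classes below, would pass. At an unadjusted p under 0.05 there were 7 in SCNT (11.7% of 60, against 14.8% of all probes), 8 in IVF-ET (13.3% against 7.95%), 3 in AI (5% against 4.37%) and 5 in IVF-ET minus AI (8.33% against 8.37%). The list median was -0.00 in SCNT, 0.01 in IVF-ET and 0.01 in AI, against -0.00, 0.00 and 0.01 over all probes. Pathway means lay between -0.49 and 0.60 in SCNT, between -0.46 and 0.60 in IVF-ET and between -0.33 and 0.27 in AI. Since GUCY1B1 was selected on a high SCNT ratio, its distance from the other members in SCNT is fixed by that choice.

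**Figure D3:**
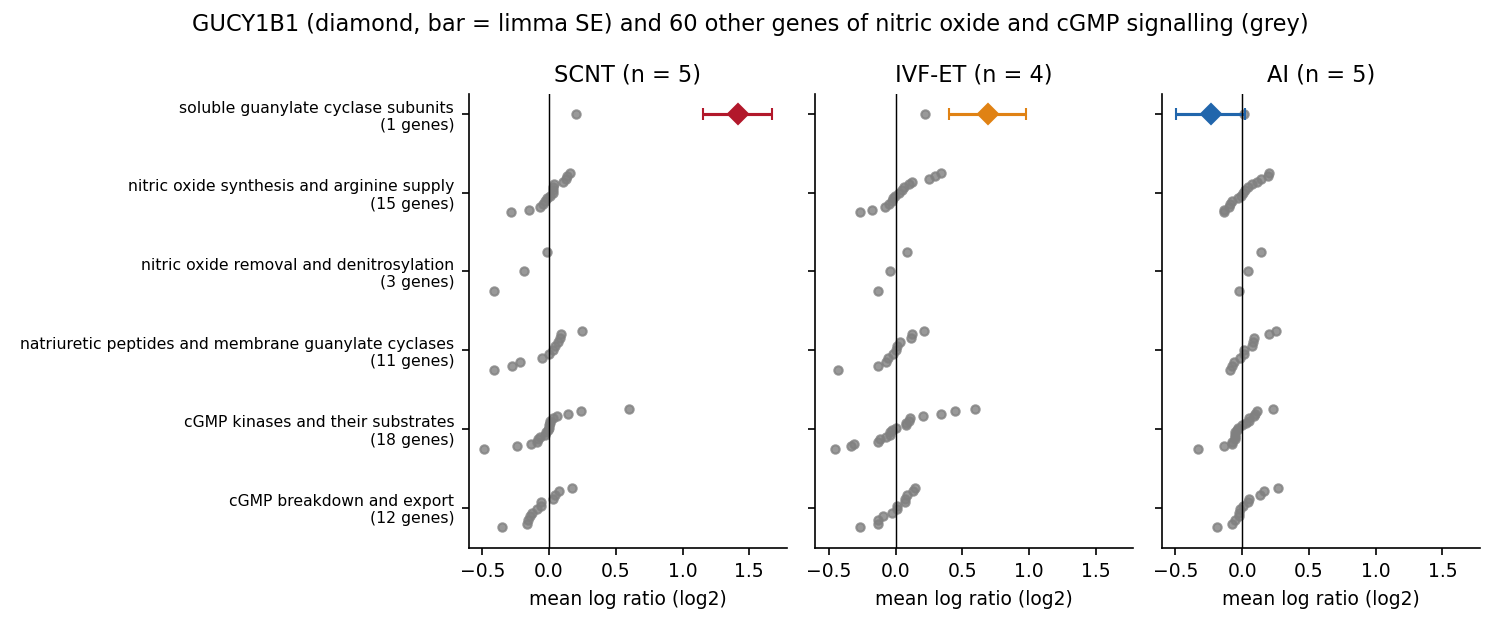
Mean log ratio (x axis, log2) of GUCY1B1 (diamond, with the limma SE) and of 60 other genes of nitric oxide and cyclic GMP signalling (grey points), by class of gene (y axis), in SCNT, IVF-ET and AI. The grey points lie within -0.49 to 0.60 in SCNT, while GUCY1B1 lies at 1.41 in SCNT, 0.69 in IVF-ET and -0.24 in AI.

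Among 15 genes that make nitric oxide or supply its arginine, none passed. The inducible synthase NOS2 was at 0.01 ± 0.09 (SE) in SCNT, 0.03 in IVF-ET and 0.05 in AI. The endothelial synthase NOS3 was at 0.11 ± 0.09 in SCNT, 0.25 in IVF-ET and 0.20 in AI, with SCNT replicate 2 at 0.39 above the other SCNT animals. The neuronal synthase NOS1 had no probe under that symbol. The 3 tested genes that remove nitric oxide or its adducts were all on the negative side in SCNT, between -0.41 and -0.01, and did not pass.

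The natriuretic peptide receptors make cyclic GMP at the cell membrane, without nitric oxide. Of 11 tested genes of this branch, NPR2, the receptor of C-type natriuretic peptide, came closest to the threshold. It was at -0.45, -0.29, -0.64, -0.22 and -0.44 in SCNT animals (mean -0.41 ± 0.10 SE, adjusted p = 0.0502 from limma). In IVF-ET animals it was at -0.44, -0.71, -0.29 and -0.29 (mean -0.43 ± 0.11 SE, adjusted p = 0.268 from limma), and in AI at -0.22, 0.37, 0.24, 0.23 and -0.23. It was negative in all SCNT and IVF-ET animals and in 2 of 5 AI animals, which are the AI animals where GUCY1B1 was positive. Over the 14 animals its r with GUCY1B1 was -0.79. NPR2 passed under 4 alternative settings, namely values required in every animal, the first spot alone, IVF-ET replicate 3 kept with its first array turned, or arrays fitted with the animal as a random block and also without AI replicate 1 or AI replicate 5. The adjusted p from limma was then as low as 0.0385, with the random block. NPR2 did not pass with any 1 SCNT animal left out. With the second array of IVF-ET replicate 3 turned, its adjusted p from limma was 0.242, and with only the SCNT animals fitted it was 0.115. Read as dye ratios, it was on the other side in SCNT, at 0.0582. The related receptors NPR1 (0.03, 0.00 and 0.01 in SCNT, IVF-ET and AI) and NPR3, which clears the peptides (-0.00, 0.03 and 0.09), stayed near 0.

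Downstream of cyclic GMP, 18 kinases and substrates were tested and none passed. Protein kinase G I, PRKG1, was at -0.14 ± 0.12 (SE) in SCNT, -0.11 in IVF-ET and -0.05 in AI. PPP1CB, the catalytic subunit of myosin phosphatase, had the most positive SCNT mean of the pathway, with 0.57, 0.17, 0.69, 0.27 and 1.28 in the 5 SCNT animals (mean 0.60 ± 0.18 SE, adjusted p = 0.105 from limma), 0.34 in IVF-ET and -0.14 in AI. It passed in SCNT with arrays fitted with the animal as a random block (adjusted p = 0.0403 from limma). PPP1R14A, an inhibitor of the same phosphatase, had the most negative mean, with -0.72, -0.07, -0.05, -0.34 and -1.25 in SCNT (mean -0.49 ± 0.17 SE, adjusted p = 0.174 from limma), -0.31 in IVF-ET and 0.11 in AI. In both genes SCNT replicate 5 was the animal farthest from 0, and without it the means were 0.42 for PPP1CB and -0.29 for PPP1R14A. PRKG2 had no probe under that symbol.

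Of 12 tested genes that break down or export cyclic GMP none passed, with SCNT means between -0.35 and 0.17. PDE5A, the phosphodiesterase specific for cyclic GMP, was at -0.16 ± 0.10 (SE) in SCNT, -0.02 in IVF-ET and 0.04 in AI. In AI it was at 0.43 in replicate 3 and between -0.09 and -0.03 in the other 4 animals.

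Soluble guanylate cyclase is known from smooth muscle, pericytes and platelets, so markers of these and other cell types were set beside it. Of 8 smooth muscle markers none passed in any group, where 1.82% of all probes passed in SCNT, 0% in IVF-ET and 0% in AI. Their median was -0.15 in SCNT, -0.11 in IVF-ET and 0.22 in AI. In single animals the median of that list ran from -0.23 to 0.04 in SCNT, from -0.26 to 0.03 in IVF-ET and from -0.22 to 0.71 in AI. MYH11, the smooth muscle myosin heavy chain, was at 0.25 ± 0.18 (SE) in SCNT, 0.03 in IVF-ET and 0.30 in AI, and ACTA2 had no probe under that symbol. Nor did the 5 tested pericyte markers pass, with medians of 0.07 in SCNT, -0.01 in IVF-ET and 0.12 in AI, and neither of the first listed, RGS5 and PDGFRB, had a probe. None of the 8 endothelial markers passed either (medians -0.02, 0.08 and 0.05 in SCNT, IVF-ET and AI), and PECAM1, an adhesion protein of endothelium, was at 0.08 in SCNT, 0.05 in IVF-ET and 0.12 in AI.

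Some epithelial and stromal markers passed in SCNT animals, on opposite sides. Of 8 epithelial markers 3 passed in SCNT by limma, all on the positive side with GUCY1B1, where 1.82% of all probes passed in either direction. They were the tight junction proteins CGN (0.66 ± 0.12 SE, adjusted p = 0.0117) and OCLN (0.51 ± 0.12, adjusted p = 0.0483) and the desmosomal protein DSP (0.63 ± 0.14, adjusted p = 0.0268). The epithelial adhesion proteins EPCAM (0.29 ± 0.15) and CDH1 (0.77 ± 0.19) did not pass, nor did the keratins KRT8 (0.38), KRT18 (0.23) and KRT19, which was on the negative side at -0.29 (keratins named after their values were seen). The list median per animal lay between 0.22 and 0.80 in SCNT, between 0.23 and 0.80 in IVF-ET and between -0.51 and 0.31 in AI. In AI it was 0.15 in replicate 1 and 0.31 in replicate 5, and between -0.51 and -0.46 in replicates 2, 3 and 4. Its side was thus that of GUCY1B1 in 14 of 14 animals, which include the SCNT animals the gene was chosen on. FRY, given below, also had the sign of GUCY1B1 in all 14, and H19 opposed it in all 14. Both were picked for their r with GUCY1B1 over these same 14 animals, so their signs are not independent of it. The share of all genes with such signs was not computed. IVF-ET replicate 4 was at 0.80 for the list and at 0.09 for GUCY1B1.

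Of 9 stromal fibroblast markers, 5 passed in SCNT on the negative side by limma, against 1.82% of all probes in either direction. These were the collagen chains COL3A1 (-1.70), COL6A3 (-1.69), COL1A2 (-0.86) and COL1A1 (-0.85), and the surface protein THY1 (-0.97). The list median per animal lay between -0.97 and -0.42 in SCNT, between -0.79 and -0.23 in IVF-ET and between -0.03 and 0.62 in AI. This median had the sign opposite to GUCY1B1 in every SCNT and IVF-ET animal of the fit. It was also opposite in AI replicates 2, 3, 4 and 5, though near 0 in replicate 5, at -0.03. AI replicate 1, positive for GUCY1B1 at 1.05, was the exception, with the highest stromal median, 0.62. The counts for both lists depend on the fit, on single animals and on the reading of the ratio. Without SCNT replicate 1, or with only the SCNT animals fitted, 1 stromal and 0 epithelial markers passed. Turning the second array of IVF-ET replicate 3 and keeping that animal left 0 of each, as did the reading as dye ratios. The part of tissue composition in the ratio of GUCY1B1 was not tested.

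**Figure D4:**
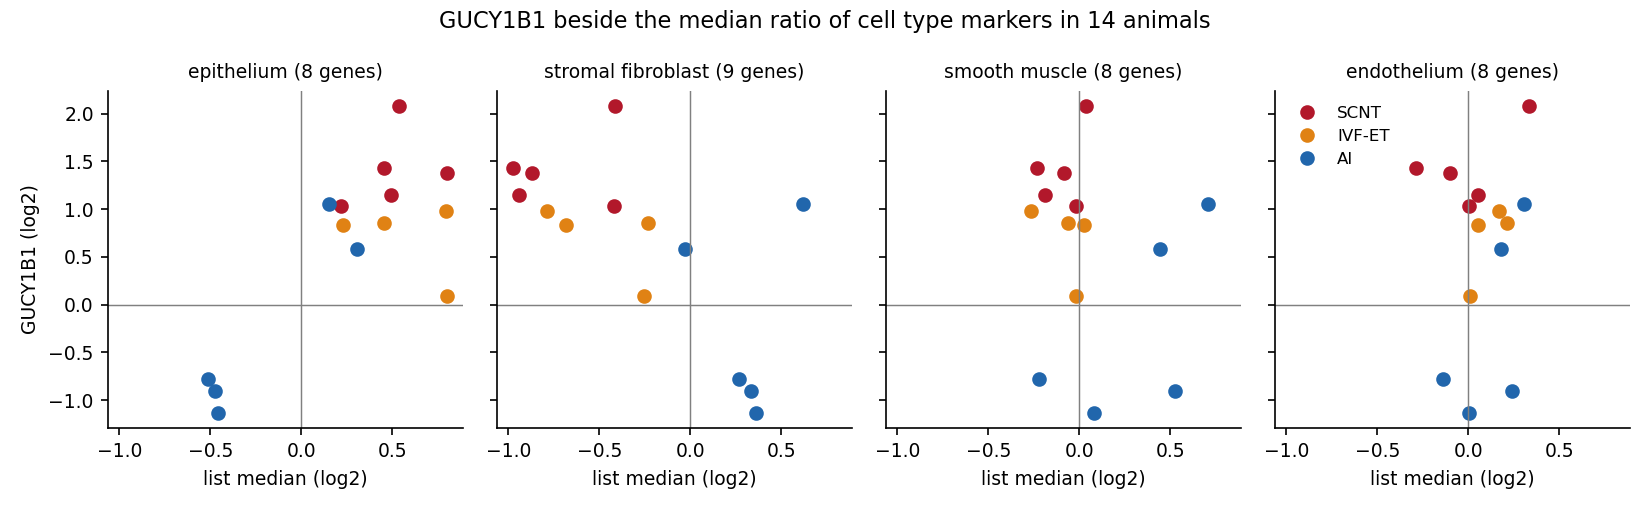
GUCY1B1 (y axis, log2) against the median log ratio of epithelial, stromal fibroblast, smooth muscle and endothelial markers (x axes, log2), with 1 point for each of 14 animals, coloured by SCNT, IVF-ET or AI. The epithelial median has the sign of GUCY1B1 in 14 of 14 animals, which include the SCNT animals the gene was chosen on. The stromal median has the opposite sign in every animal shown except AI replicate 1, which lies at 0.62 with GUCY1B1 at 1.05.

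Markers of other cells were near 0 or passed in no group. This held for the 3 uterine gland markers (medians 0.06 in SCNT, 0.09 in IVF-ET and 0.04 in AI), 2 platelet markers (-0.04, -0.01 and 0.00), 3 red blood cell markers (-0.06, 0.00 and -0.04) and 8 leukocyte markers (0.09, 0.04 and 0.05). In single animals, however, the gland median ran from -0.07 to 0.53 in SCNT, from -0.54 to 0.87 in IVF-ET and from -0.42 to 0.48 in AI. The leading members were SPP1 at 0.06, -1.03 and 0.17, PF4 at -0.07, -0.08 and 0.07, ALAS2 at 0.03, -0.02 and -0.04, and PTPRC at 0.24, -0.01 and 0.05 in SCNT, IVF-ET and AI. The 6 trophoblast markers had medians of -0.44 in SCNT, -0.11 in IVF-ET and -0.11 in AI, and their median per SCNT animal ran from -1.77 to 0.18. IFNT2, an interferon tau of the conceptus, was at -0.61 ± 0.26 (SE) in SCNT, -0.13 in IVF-ET and -0.15 in AI and did not pass.

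The genes whose ratios were most like that of GUCY1B1 were found by Pearson's r over the 14 animals, among 8066 genes with 1 symbol and a value in every animal. Highest were FRY, a scaffold protein of cell shape (r = 0.94), FILIP1L (0.91), the spermine synthase SMS (0.91), the sperm surface protein SPA17 (0.90) and SPRY2, an inhibitor of receptor tyrosine kinase signalling (0.90). The r of all genes had a median of -0.03, with 95% of genes between -0.69 and 0.71. FRY was at 0.77, 1.44, 1.18, 0.68 and 1.67 in SCNT, at 0.82, 0.69, 0.15 and 0.58 in IVF-ET, and at 0.37, -1.27, -0.49, -0.95 and 0.42 in AI. It had the sign of GUCY1B1 in all 14 animals and was also lowest in replicate 4 within IVF-ET.

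Lowest were H19, an imprinted non-coding RNA (r = -0.93), SFRP1, a secreted WNT inhibitor (-0.92), the sialyltransferase ST6GALNAC6 (-0.91), EMILIN1, a glycoprotein of elastic fibres (-0.91), and TCEA2, a transcription elongation factor (-0.90). H19 was at -2.51, -2.99, -1.34, -2.13 and -3.37 in SCNT, at -1.58, -0.99, -1.08 and -0.77 in IVF-ET, and at -0.61, 1.38, 2.02, 1.52 and -0.60 in AI. It opposed GUCY1B1 in all 14 animals. AI replicates 2, 3 and 4 lay on the side away from the other animals for GUCY1B1, FRY and H19. Over the 9 SCNT and IVF-ET animals the r values were lower in size, at 0.79 for FRY, 0.73 for FILIP1L, 0.65 for SMS, 0.62 for SPA17 and 0.52 for SPRY2. On the negative side they were -0.78 for H19, -0.75 for SFRP1, -0.77 for ST6GALNAC6, -0.81 for EMILIN1 and -0.62 for TCEA2. With the AI sign turned, r over the 14 animals was 0.89 for FRY and -0.90 for H19. All animals share the array platform and its normalisation, and no p is attached to these values.

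**Figure D5:**
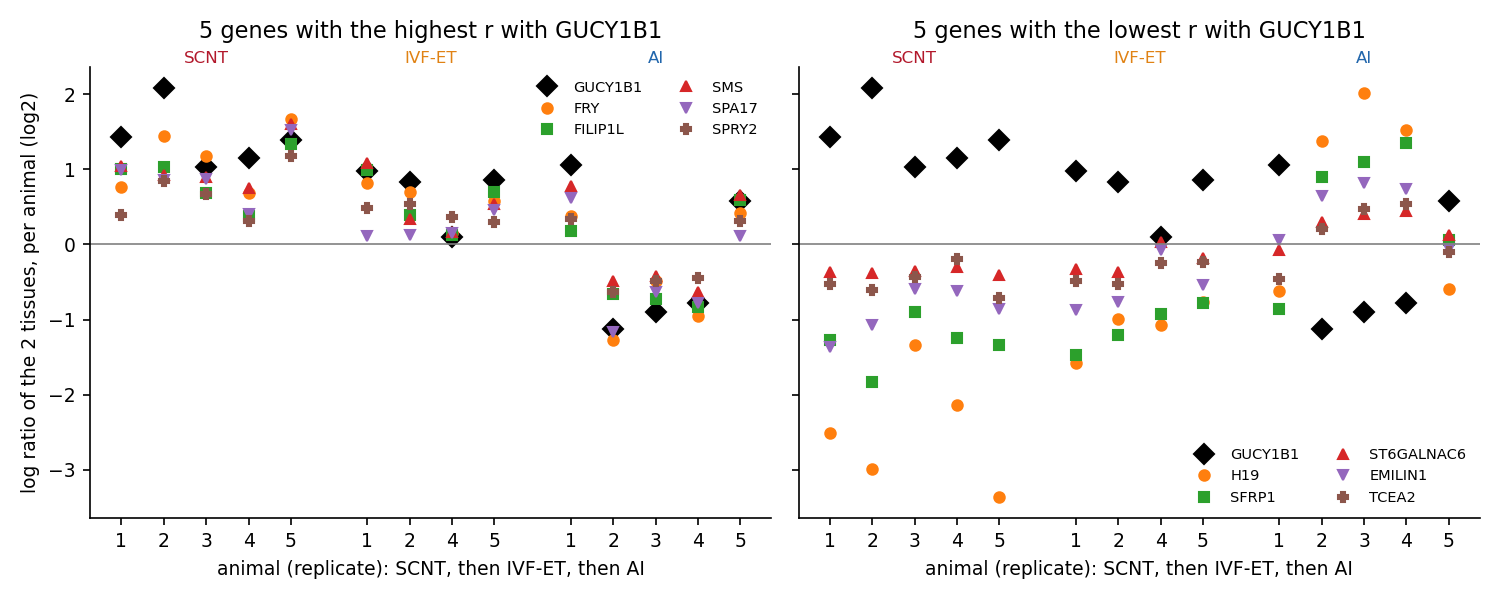
Log ratio per animal (y axis, log2) of GUCY1B1 (black diamonds) with the 5 genes of highest r (left) and of lowest r (right), over 14 animals (x axis) in the order SCNT, IVF-ET and AI. The left genes follow GUCY1B1 to the negative side in AI replicates 2, 3 and 4, and H19 on the right runs between -3.37 in SCNT replicate 5 and 2.02 in AI replicate 3.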

How the data were processed

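Endometrial RNA of 15 animals was measured on 30 two-colour arrays. Column-purified RNA was converted to cDNA carrying aminoallyl groups, to which Cy3 or Cy5 was attached, per the labels' protocols. The deposited values are log ratios of each array, taken here as log2 and already normalised by the authors; the method of normalisation, base and direction were not given in the sources used here. The deposited log2 values had array medians between -0.0225 and 0.0210. Arrays held 26744 to 27643 spots with a value of 27648. Signal over background is not known, and the number of animals limits the precision.

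Adjacent spots shared their accession in 8750 of 8750 annotated pairs, so 2 spots were averaged. Of 13824 probes, 8645 had 1 symbol, 105 several and 5074 were not listed in the platform annotation and are unnamed here. Each array was centred on its median, and an animal's value is the mean of its 2 arrays. Probes with values in at least 4 animals of AI and of SCNT and 3 of IVF-ET were tested (13818). limma 3.58.1 in R 4.3.3 (lmFit, eBayes) fitted 3 group means with 1 spread per probe, two-sided, with Benjamini-Hochberg adjustment and a threshold of 0.05. The script was tested on simulated data. The tissues are paired within each animal by the ratio itself, and replicate numbers name different animals in each group.

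The gene, its lists and the tests were chosen with earlier results of these data known. Named were GUCY1B1, fixed members and the extreme members of the pathway, the first 2 markers of each cell type, members past the threshold, and the 5 genes with the highest and lowest r. A gene with several probes was represented by the probe with most values. Alternatives covered the reading, the AI sign, IVF-ET replicate 3, centring, filters, spots, the fit and each animal left out. The files name no build, so no coordinates are given, and the annotation of ARS-UCD2.0 was used only for which genes are neighbours. Sequences were not used here.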

Additional observations from a re-analysis of the deposited data

Results flagged for a closer look

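Among 38 named genes in 3 groups, 114 groups of animals were checked for an animal far from the rest of its group, and 7 had one. By chance about 5% of groups would. GUCY1B1 itself was at 0.0924 in IVF-ET replicate 4, with the other IVF-ET animals between 0.83 and 0.98. NOS3 was at 0.39 in SCNT replicate 2, against -0.01 to 0.10 in the other SCNT animals. PDE5A was at 0.43 in AI replicate 3, against -0.09 to -0.03. SPA17 was at 0.46 in IVF-ET replicate 5, against 0.12 to 0.16. CDH1 was at 1.68 in SCNT replicate 5, against 0.49 to 0.60. In IVF-ET replicate 2, PF4 was at -0.27, against -0.03 to -0.02, and PTPRC at 0.19, against -0.10 to -0.06.

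A pair of marker genes lay on opposite sides in all animals of the groups compared. Groups did not overlap in 2.84% of all probes between SCNT and AI, and in 3.33% between IVF-ET and AI. That is a looser measure than opposite sides, for which the share of probes was not computed. Both genes were named because they passed the threshold in SCNT, so their SCNT values are not independent of that choice. COL3A1 averaged -1.70 in SCNT and 0.61 in AI, a difference of -2.31, and -0.96 in IVF-ET, a difference from AI of -1.57. The first of these was not tested, and the second did not pass (adjusted p = 0.304 from limma). CGN averaged 0.66 in SCNT, 0.66 in IVF-ET and -0.41 in AI. The difference IVF-ET minus AI was 1.07 (adjusted p = 0.0487 from limma), and SCNT minus AI, also 1.07, was not tested. In IVF-ET minus AI 0 probes passed, so CGN did not, with the AI sign turned, the dye reading or arrays scaled to 1 spread. The same held with the second array of IVF-ET replicate 3 turned, and without several single animals, such as AI replicate 2. With the sign of the AI arrays turned, COL3A1 and CGN would lie on the same side in all 3 groups.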

How the results depend on the processing

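In each of 13 alternative settings other than leaving out an animal, and in each of 14 fits without 1 animal, GUCY1B1 did not pass in IVF-ET or AI, nor in IVF-ET minus AI, where adjusted p from limma was at least 0.0748, 0.475 and 0.147. Its SCNT mean kept its side and size in 12 of the 13. Many of these settings, such as the AI sign, IVF-ET replicate 3 and the filters, leave the values of the SCNT animals unchanged. The count is therefore no test of that mean. The exception was the reading as dye ratios.

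With the values read as dye ratios, GUCY1B1 was at 0.0567 in SCNT and 0.18 in AI, with differences of -0.12 (SCNT minus AI), 0.0149 (SCNT minus IVF-ET) and -0.13 (IVF-ET minus AI). GUCY1A1 was at -0.0637 in SCNT, -0.25 in IVF-ET and -0.39 in IVF-ET minus AI, and in SCNT NPR2 was at 0.0582, PPP1CB at -0.0434 and PPP1R14A at 0.14. The probes that passed numbered 0 in SCNT, 1 in IVF-ET, 362 in AI and 0 in IVF-ET minus AI. Turning the AI sign gave 0.24 for GUCY1B1 and -0.0179 for GUCY1A1 in AI, by construction, and 0 probes in IVF-ET minus AI.

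Keeping IVF-ET replicate 3 with its first array turned gave 78 probes in IVF-ET and 33 in IVF-ET minus AI, with 1, 2 and 1 pathway genes in SCNT, IVF-ET and IVF-ET minus AI. With its second array turned there were 0 probes in SCNT and 0 in IVF-ET minus AI, and GUCY1B1 was at 1.17 in SCNT minus IVF-ET. Kept as deposited, it left 1 probe in IVF-ET minus AI. That count of 8 was 0 with arrays scaled to 1 spread and 5 with no filter. Requiring values in every animal, or taking the first spot alone, gave 1 pathway gene in SCNT, NPR2. Fitting only the groups compared gave 74 probes in SCNT, 105 in IVF-ET and 18 in IVF-ET minus AI. Arrays fitted with the animal as a random block gave 510, 21 and 20, and 2 pathway genes in SCNT. The causes of these shifts were not tested.

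Without 1 animal, GUCY1B1 ranged from 1.25 to 1.51 in SCNT, from 0.59 to 0.89 in IVF-ET and from -0.56 to -0.01 in AI. Its differences ranged from 1.43 to 1.97 (SCNT minus AI), from 0.52 to 0.82 (SCNT minus IVF-ET) and from 0.70 to 1.25 (IVF-ET minus AI). Probes that passed ranged from 2 (without SCNT replicate 1) to 326 in SCNT, from 0 to 21 in IVF-ET, and from 0 to 37 in IVF-ET minus AI, and pathway genes from 0 to 1 in SCNT and in IVF-ET minus AI. GUCY1A1 in AI ranged from -0.0235 to 0.0516, and was -0.0068 without AI replicate 2. No paired analysis was possible because replicate numbers name different animals in each group; both tissues of an animal are already paired on each array. Precision is limited by 4 or 5 animals a group, and signal over background is not known.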
